A study of Mus musculus with 3 samples.

Results

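ATAC-seq peaks called in mouse hematopoietic stem cells (HSCs) under AZD2014 were compared with those called under rapamycin, by the rank that each peak held within its own list. The highest-scoring peaks of each list were kept, as many as the DMSO list holds: 80.6% of 21321 peaks under AZD2014 and 94.3% of 18233 under rapamycin. An AZD2014 peak and a rapamycin peak were paired when they overlapped by at least 1 bp, which gave 14410 pairs (83.8% of either kept list) out of 56743 peaks deposited in 3 lists. HSCs were isolated by FACS from adult mice of the genotype Mx1-Cre-/-;mTORflox/flox that had received poly(I:C), and were then cultured in StemSpan SFEM. These mice carry floxed mTOR alleles without the Cre transgene, so mTOR is intact in every group. The cells received DMSO, the solvent, or AZD2014 at 200 nM, or rapamycin at 1 µM, and 50000 cells entered each library. The exposure time, the number of animals pooled and the read totals were not given in the sources used here. Doses of the drugs differ and each condition has 1 library, so every value below describes these libraries, without any replicate spread to hold it against.

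mTOR is a kinase that works in 2 complexes: mTORC1, built on Raptor, which drives protein and lipid synthesis and restrains autophagy, and mTORC2, built on Rictor, which phosphorylates AKT. AZD2014 competes with ATP in the kinase site and so blocks both complexes, whereas rapamycin binds FKBP12, and the pair of molecules docks beside the kinase site of mTORC1. HSCs keep mTORC1 activity low while quiescent, and stem cell function is lost when the pathway is held on. ATAC-seq reads chromatin accessibility: a transposase cuts open DNA, and a peak marks a stretch with more insertions than its surroundings, most often a promoter or an enhancer. A list pools all cells of a library, so a region open in fewer cells and a region less open in each cell cannot be told apart.

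Each peak's score, the authors' own value, was turned into a percentile of its kept list (0 lowest, 100 highest), and the shift of a pair is the AZD2014 percentile minus the rapamycin percentile, in points. Shifts of at least 20 points were counted. A positive shift therefore means a higher place in the AZD2014 list, not a larger signal on a common scale.

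The stretches of 250 bases upstream of the start site of 8 genes are shown because gene-start shifts that the results turn on lie over or beside them: Akirin2, Cgas, Chac1 and Dnmt3a ranked higher under AZD2014, and Fndc3b, Eif4a1, Cbx7 and Psmb8 under rapamycin. They are RefSeq promoters on GRCm38.p6, the assembly that mm10 names, written 5′ to 3′ toward the gene's start. Capitals mark matches, on either strand, to 17 short motifs: CCGGAA (ETS), TGTGGT (RUNX), AGATAA (for GATA factors), TGANTCA (AP-1), TGACGTCA (the full CRE bound by CREB and ATF factors), TGACG (a shorter form, also counted inside the full CRE), CACGTG (the E-box of Myc and of TFEB and TFE3), GCATGCGC (NRF1), GGGCGG (the GC box of SP and KLF factors), CCAAT (the CCAAT box of NF-Y), TATAAA (the TATA box), TTCNNNGAA (STAT), TGATGCAA (the composite site of ATF4), TTTGGCGC (E2F), GAAANNGAA (the ISRE core), GGGANTTCC (NF-kB) and AAGATGGCG (YY1).
Akirin2 (chr4:34550365-34550614, + strand): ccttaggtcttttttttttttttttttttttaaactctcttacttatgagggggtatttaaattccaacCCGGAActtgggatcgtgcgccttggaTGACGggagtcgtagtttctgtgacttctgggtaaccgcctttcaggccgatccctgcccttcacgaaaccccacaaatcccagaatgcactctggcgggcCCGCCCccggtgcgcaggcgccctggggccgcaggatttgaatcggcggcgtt
Cgas (chr9:78443238-78443487, - strand): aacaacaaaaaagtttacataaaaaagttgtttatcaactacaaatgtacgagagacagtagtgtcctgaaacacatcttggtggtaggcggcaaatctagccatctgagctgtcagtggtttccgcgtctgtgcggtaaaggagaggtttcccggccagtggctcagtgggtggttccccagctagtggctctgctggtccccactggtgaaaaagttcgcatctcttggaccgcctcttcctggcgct
Chac1 (chr2:119350992-119351241, + strand): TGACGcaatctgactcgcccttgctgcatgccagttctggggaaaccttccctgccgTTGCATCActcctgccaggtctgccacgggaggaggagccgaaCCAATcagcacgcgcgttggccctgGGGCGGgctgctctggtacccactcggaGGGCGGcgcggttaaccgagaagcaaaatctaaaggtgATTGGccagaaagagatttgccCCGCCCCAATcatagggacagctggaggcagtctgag
Dnmt3a (chr12:3806910-3807159, + strand): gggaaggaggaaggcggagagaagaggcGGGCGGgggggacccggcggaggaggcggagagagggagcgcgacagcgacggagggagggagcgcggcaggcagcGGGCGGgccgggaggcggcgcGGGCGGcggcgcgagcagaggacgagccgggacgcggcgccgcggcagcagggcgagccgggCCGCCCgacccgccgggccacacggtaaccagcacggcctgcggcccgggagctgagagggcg
Fndc3b (chr3:27710453-27710702, - strand): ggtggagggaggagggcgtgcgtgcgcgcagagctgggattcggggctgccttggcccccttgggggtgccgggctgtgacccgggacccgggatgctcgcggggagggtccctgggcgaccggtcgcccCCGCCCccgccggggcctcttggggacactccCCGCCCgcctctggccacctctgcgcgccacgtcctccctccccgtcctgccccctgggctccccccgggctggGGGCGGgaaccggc
Eif4a1 (chr11:69672424-69672673, - strand): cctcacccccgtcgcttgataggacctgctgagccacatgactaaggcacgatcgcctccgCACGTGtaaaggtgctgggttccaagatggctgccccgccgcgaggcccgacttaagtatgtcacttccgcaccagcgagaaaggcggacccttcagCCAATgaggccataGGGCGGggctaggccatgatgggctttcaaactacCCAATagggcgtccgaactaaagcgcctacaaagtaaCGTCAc
Cbx7 (chr15:79932647-79932896, - strand): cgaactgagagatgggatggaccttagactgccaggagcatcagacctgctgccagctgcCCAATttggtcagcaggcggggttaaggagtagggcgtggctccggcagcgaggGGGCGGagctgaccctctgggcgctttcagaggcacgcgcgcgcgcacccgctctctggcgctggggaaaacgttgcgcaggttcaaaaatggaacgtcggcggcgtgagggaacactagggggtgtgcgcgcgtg
Psmb8 (chr17:34197945-34198194, + strand): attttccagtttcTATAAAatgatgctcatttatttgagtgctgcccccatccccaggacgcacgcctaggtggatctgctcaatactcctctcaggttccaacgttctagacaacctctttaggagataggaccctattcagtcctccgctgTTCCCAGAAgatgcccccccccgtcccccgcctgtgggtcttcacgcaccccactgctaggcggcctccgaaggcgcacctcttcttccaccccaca

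Base composition of these promoters ranges from 50% G and C at Cgas, where no motif matched, to 80.8% at Dnmt3a, which holds 4 GC boxes and 40 CpG dinucleotides. The Chac1 promoter holds the ATF4 composite on the reverse strand, 193 bases before the start, a motif found in 0.791% of all 32851 promoters of the table. It also holds 3 GC boxes and 3 CCAAT boxes, which 32.7% and 33.8% of promoters hold at least once. Eif4a1 has CACGTG 189 bases before its start (6.02% of promoters), and Psmb8 has TTCCCAGAA, a match to the STAT letters, 97 bases before its start (7.02%), and TATAAA 237 bases before it (12.4%). Akirin2 alone of the 8 holds CCGGAA, which 12.03% of promoters hold. All 8 genes have a pair at their start, which most promoters of the table do not. Among the 8261 genes with a pair and a promoter, 26.7% hold CCGGAA, 66.1% the GC box and 38.8% the CCAAT box. CACGTG stood there at 9.02%, the STAT letters at 5.75%, TATAAA at 4.99% and the ATF4 composite at 0.363%. A match describes letters only.

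Peaks covered these stretches differently in the 2 lists. At Cgas, Chac1 and Cbx7 all 250 bases lay inside both paired peaks. At Fndc3b and Psmb8 all 250 bases lay inside the rapamycin peak and 0 inside any AZD2014 peak, as the AZD2014 peak lay farther upstream. The Akirin2 and Dnmt3a promoters lay wholly inside 1 wide AZD2014 peak but outside the paired rapamycin peak. There the rapamycin list has a second peak, over 250 bases at Akirin2 and 184 at Dnmt3a. Eif4a1 showed the mirror image, with all 250 bases in the paired rapamycin peak and in a second, unpaired AZD2014 peak. A pair with such a second peak inside its span is called a split pair below, since its percentile in 1 list stands for only part of the region.

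Before the pairs are described, the labelled cell type was set against its defining markers. Within 1 kb of the start, the kept AZD2014 list marked 5 of 12 HSC genes (Kit, Mecom, Hlf, Tal1 and Runx1), the rapamycin list 6 (these and Meis1) and the DMSO list 7. Of 5 myeloid markers, 0 had a peak under AZD2014 and 1, Mpo, under rapamycin; of 5 mast cell and basophil markers the counts were 0 and 2 (Cpa3 and Gzmb). Erythroid genes were marked at 2 and 3 of 4 and megakaryocyte genes at 2 and 2 of 3, while B cell markers stood at 0 and 1 (Ebf1) of 4, T cell markers at 0 and 0 of 4, and non-blood markers at 1 and 1 (Col1a1) of 7. The part of these markers in the shifts was not tested.

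Most pairs held nearly the same place in both lists. Across the 14410 pairs the percentiles had a Spearman correlation of 0.913, and the quartiles of the shift were -6.53 and 6.39 points around a median of 0. The central 95% ran from -26.1 to 25.9 and the whole range from -70.6 to 61.7. Since percentiles are centred within each list, the 49.9% of pairs that ranked higher under AZD2014 was bound to lie near 50%. Shifts of at least 20 points toward AZD2014 were found at 732 pairs (5.08%) and toward rapamycin at 779 (5.41%). Both shares depend on equal list length: with the deposited lists ranked at full length, 21321 AZD2014 and 18233 rapamycin peaks, they were 11.3% and 2.39%, because the added AZD2014 peaks have low scores and lift the percentile of all others.

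**Figure D1:**
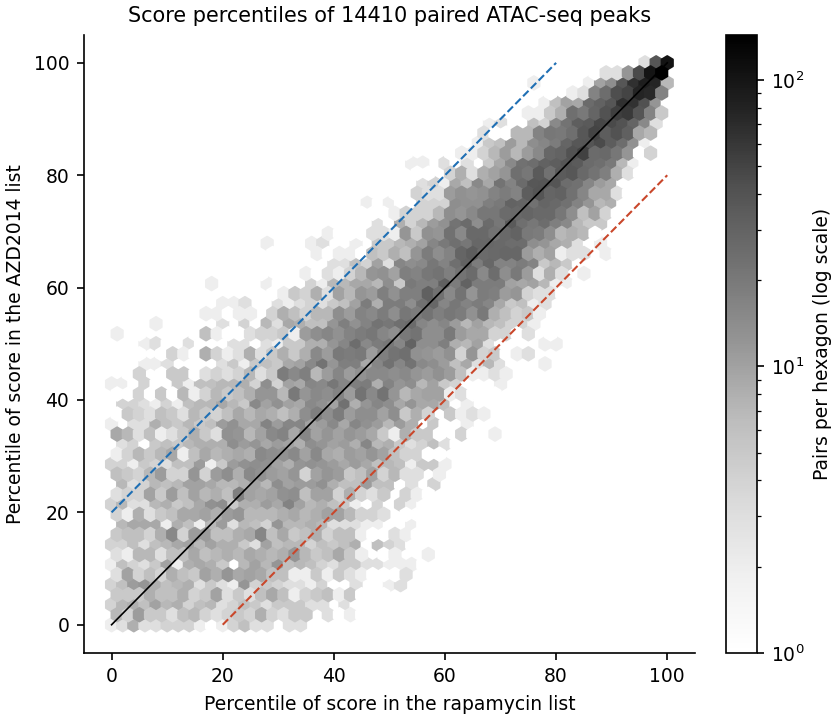
Percentile of the score in the AZD2014 list (vertical) against that in the rapamycin list (horizontal) for 14410 pairs, with darker hexagons holding more pairs on a log scale; the solid line marks equal percentiles and the dashed lines a shift of 20 points to either side. Pairs lie close to the line at high percentiles and scatter widely below the middle of the lists.

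The spread of the shift differed by level. A mean percentile near either end of the scale limits how large a shift can be, so these spreads are partly set by the grouping. Pairs with a mean percentile of 80 to 100 had a shift SD of 4.87 points over 3345 pairs, and 2 of them passed 20 points in each direction. At a mean percentile of 20 to 40 the SD was 18.0 over 3006 pairs, with 12.9% past 20 points toward AZD2014 and 14.2% toward rapamycin. In the lowest band, 0 to 20, it was 14.4 over 1342 pairs. Unpaired peaks were low as well: the 2779 left over in each list had median percentiles of 14.1 (AZD2014) and 13.5 (rapamycin), and 20 and 34 of them lay in the upper 50% of their list. Of the unpaired rapamycin peaks 37.5% overlapped a peak of the full deposited AZD2014 list. Of the unpaired AZD2014 peaks 12.2% overlapped a peak of the full rapamycin list. These shares count overlaps with peaks left out by score and with kept peaks that were not the mutual choice. The lowest AZD2014 score kept was 67.12 and the highest left out 67.1; for rapamycin these were 53.69 and 53.68.

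By place, 9114 pairs lay at a gene start (within 1 kb of an annotated start site, or of either gene end for the 4395 of 21887 protein-coding genes without a listed site), 2591 in a gene body and 2705 outside genes. Pairs at gene starts ranked far higher, with median percentiles of 70.4 in both lists, against 37.2 and 38.1 in gene bodies and 37.3 and 38.0 outside genes (AZD2014 first). Their shift SD was 10.6 points, against 14.3 in gene bodies and 14.6 outside genes. The share ranked higher under AZD2014 was 50.6% at gene starts, 49.1% in gene bodies and 48.5% outside genes. Past 20 points, gene starts had 3.68% of pairs toward AZD2014 and 3.24% toward rapamycin, gene bodies 7.72% and 8.84%, and outside genes 7.28% and 9.43%. At matched level the places came close to each other: at a mean percentile of 20 to 40 the shift SD was 18.7, 17.8 and 17.6 points for gene starts, gene bodies and outside genes. There 14.4% of gene starts passed 20 points toward AZD2014 and 13.5% toward rapamycin, while gene bodies had 12.2% and 14.8%.

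**Figure D2:**
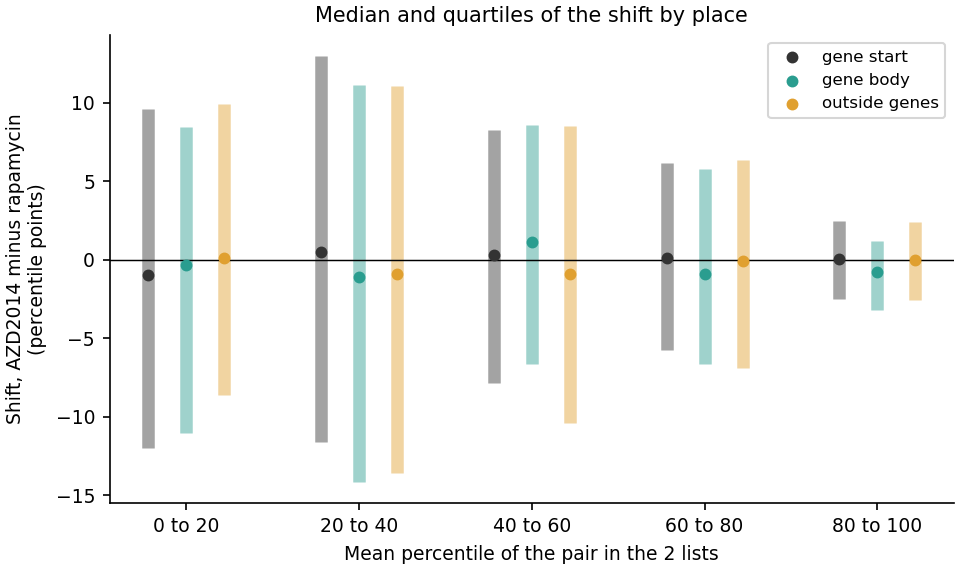
Shift in percentile points (vertical) for pairs grouped by their mean percentile in the 2 lists (horizontal), with the median as a point and the quartiles as a bar, for gene starts, gene bodies and pairs outside genes. Medians stay near 0 in every band and the bars narrow toward the top of the lists in all 3 places.

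A gene-start pair was found for 10040 protein-coding genes. Of these, 350 genes (3.49%) had shifted by at least 20 points toward AZD2014 and 285 (2.84%) toward rapamycin. With the lists ranked at full length these counts were 696 and 104. The largest shift toward AZD2014 was at Akirin2. Akirin2, a nuclear factor needed for NF-kB target genes and for proteasome import, had scores of 443.84 under AZD2014, 88.71 under rapamycin and 251.96 under DMSO (AZD2014 peak at chr4:34550190-34551965, mm10). These are percentiles of 85.4, 31.2 and 78.1, a shift of 54.2 points in a split pair. Cgas, the cytosolic DNA sensor that makes cyclic GMP-AMP, stood at percentiles of 52.0 under AZD2014, 0.803 under rapamycin and 33.7 under DMSO (scores 189.8, 54.24 and 86.3, chr9:78442724-78443563). Its shift of 51.2 points is not touched by a second peak. At Akirin2 the rapamycin value is that of 1 of 2 rapamycin peaks, of 874 bp against 1776 bp under AZD2014. The 3 values there are not of the same region. Rapamycin gave the lowest of the 3 values at Cgas, where its peak was among the weakest kept.

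Cybc1, which encodes a chaperone of the phagocyte NADPH oxidase, showed the same order as Cgas. Its percentiles were 55.1, 3.99 and 49.5 (AZD2014, rapamycin and DMSO, the order used throughout). Polr2k, a subunit shared by the nuclear RNA polymerases, had 53.0, 8.74 and 48.4. At both, AZD2014 lay close to DMSO and rapamycin far below them. Bmpr1a, a type I receptor for bone morphogenetic proteins, differed in that AZD2014 stood alone, at 59.2 against 15.1 and 18.4. Myrf, the myelin regulatory transcription factor, likewise had 43.9 against 0.314 and 13.9. Hacd4, a dehydratase of very-long-chain fatty acid elongation, had percentiles of 49.8 and 0.870 in a peak 606 bp from the start, and no DMSO peak. The rest of the 10 largest, Ranbp17 (a nuclear transport receptor of the importin-beta family; shift 51.03), Stat6 (the transcription factor of interleukin-4 signalling; 47.1) and Cwf19l2 (a splicing factor; 44.3), are split pairs in which 1 AZD2014 peak spans 2 rapamycin peaks.

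Toward rapamycin the leading gene was Fndc3b, a membrane protein with fibronectin type III domains. Its scores were 78.23, 231.67 and 70.55, or percentiles of 9.67, 69.3 and 22.8, and its shift was -59.7 points (AZD2014 peak at chr3:27710989-27711513). Rapamycin alone ranked it high, in a peak of 1358 bp against 525 bp under AZD2014 and 564 bp under DMSO. All 250 bases of the promoter printed above lay in a DMSO peak, as in the rapamycin peak, and 0 in any AZD2014 peak. The AZD2014 and DMSO values are thus not of the same stretch. Cbx7, the chromodomain subunit through which Polycomb repressive complex 1 reads methylated histone H3, had percentiles of 4.49, 54.8 and 16.6 (scores 72.16, 157.37 and 63.39, chr15:79932324-79933022) and a shift of -50.3. Its AZD2014 peak was the wider, at 699 bp against 560 bp, so width did not follow the rank there.

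Eif4a1, the RNA helicase of the cap-binding complex eIF4F that mTORC1 promotes through the 4E-BPs, had percentiles of 40.3, 92.8 and 82.6, a shift of -52.5. The AZD2014 list cuts this promoter region into 2 peaks, and the paired one, at chr11:69670969-69671861, lies downstream of the promoter printed above. Capns1, the small calpain subunit, stood at 2.08, 53.9 and 41.5, and Rps6kc1, a member of the ribosomal S6 kinase-like family, at 0.431, 46.6 and 56.1. In these 2 AZD2014 gave the low value and DMSO sided with rapamycin. Il10rb, the receptor chain shared by interleukin-10 family cytokines, had 4.75, 49.8 and 13.9, with DMSO nearer to AZD2014. Auts2, a partner of a Polycomb complex in neurons, had 11.3 and 57.0 and no DMSO peak. Atp2a3 (the calcium pump SERCA3; shift -51.6), Atp5d (the delta subunit of mitochondrial ATP synthase; -50.8) and Arsb (the lysosomal arylsulfatase B; -45.2) are split pairs.

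**Figure D3:**
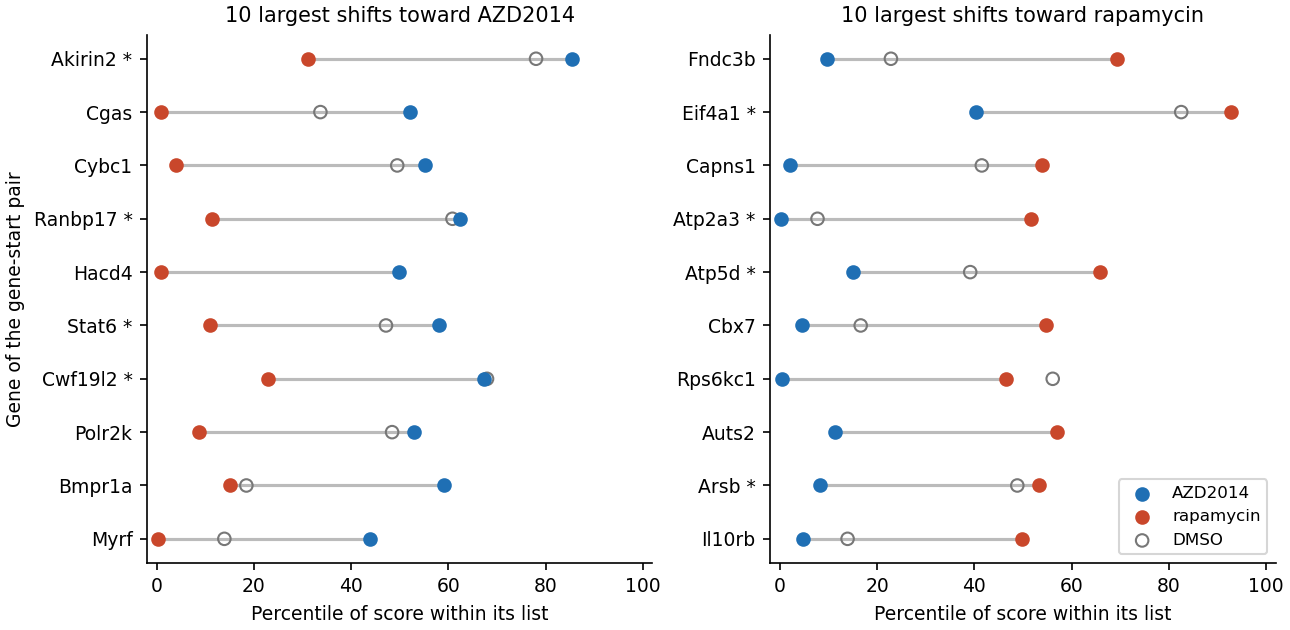
Score percentile (horizontal) under AZD2014, rapamycin and DMSO for the 10 largest gene-start shifts in each direction, 1 gene per line; an asterisk marks split pairs, and a missing open circle means that no DMSO peak overlapped. DMSO lies between the drugs in 8 of the 9 genes with a DMSO peak on either side, with Cwf19l2 and Rps6kc1 as the exceptions.

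The DMSO percentile was set beside both drugs over all shifted pairs. Of the 732 pairs toward AZD2014, 614 had a DMSO partner, with median percentiles of 48.1 under AZD2014, 19.6 under rapamycin and 41.3 under DMSO, and the DMSO value was nearer to AZD2014 in 63.8%. Of the 779 pairs toward rapamycin, 619 had one, with medians of 19.2, 48.3 and 39.0, and DMSO was nearer to rapamycin in 55.4%. Over all 13031 pairs with a DMSO partner it was nearer to AZD2014 in 51.9%. DMSO lay between the drugs in 61.1% and 61.4% of the 2 shifted sets and in 29.7% of all pairs. The shifted sets were chosen for a wide gap between the drugs, which by itself leaves more room between them. A DMSO partner was present for 83.9% of pairs toward AZD2014, 79.5% of those toward rapamycin and 90.4% of all. Split pairs were more frequent among shifted pairs: 4.64% of the pairs toward AZD2014 spanned 2 or more rapamycin peaks, against 0.687% of all pairs, and 3.72% of those toward rapamycin spanned 2 or more AZD2014 peaks, against 0.479%.

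Gene starts in the upper 50% of both lists were also ranked apart, where the top of the scale limits a shift. There the largest shifts toward AZD2014 were at Prr12 (32.0 points), Lnx2 with its neighbour Polr1d (28.1) and Pan3, a subunit of an mRNA deadenylase (26.7). All of these are split pairs. Hspa1a, the heat-inducible HSP70 chaperone, came next without a split, at percentiles of 82.8, 56.7 and 70.8, with Hspa1l at the same peak. Lsm10, a subunit of the U7 particle that trims histone mRNAs, had 82.4, 56.6 and 75.1. In both, DMSO lay between the drugs and closer to AZD2014. Toward rapamycin stood Dda1, a component of DDB1-CUL4 ubiquitin ligases (54.2, 84.1 and 43.8), Ranbp9, a scaffold of the CTLH ubiquitin ligase (57.1, 85.4 and 76.4), and Acer2, a Golgi ceramidase (50.01, 77.4 and 69.0). Cnpy4 with Taf6 (shift -27.2) and Aldh18a1, which makes the precursor of proline (-26.8), completed the 5. With the lists ranked at full length the shifts of Acer2, Cnpy4 and Aldh18a1 were -19.0, -19.1 and -18.5, under the 20-point line. This setting weighs mostly on shifts toward rapamycin, here and below, as the longer AZD2014 list lifts AZD2014 percentiles.

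Inside gene bodies the largest shift toward AZD2014 lay in Sipa1l2, a regulator of Rap GTPases, with percentiles of 58.5, 7.47 and 36.0. It was followed by Rere, a corepressor of the atrophin family (51.5, 5.57 and 40.4), Ptpn6, which encodes the phosphatase SHP-1 that damps cytokine signalling in blood cells (49.6, 6.78 and 25.6), Galntl6 (split) and Aff1, a scaffold of the super elongation complex (55.2, 14.5 and 36.3). Toward rapamycin stood Cog6, a Golgi tethering subunit, with 5.25, 62.2 and 49.9, then Cntln (split), Col16a1, Mdga2 and Atp4a, with shifts of -49.8 to -42.5. In all 5 named pairs toward AZD2014 DMSO lay between the drugs.

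Outside genes, the 5 largest shifts toward AZD2014 include pairs near Fkbp1a and Ifnar1. A pair 11553 bp from Fkbp1a, which encodes FKBP12, the protein that rapamycin binds, had percentiles of 52.4, 1.89 and 50.8 (scores 191.45, 55 and 125.59, chr2:151530232-151530930). The gene-start pair of Fkbp1a itself was at 53.7, 33.6 and 69.1, a shift of 20.03 points at the line, and was named after its value was seen. Rapamycin had the lowest percentile at both peaks. A pair 11504 bp from Ifnar1, a chain of the type I interferon receptor, had 61.5, 5.50 and 51.9, in a peak of 1498 bp under AZD2014 and 416 bp under rapamycin. Ifnar1's own start was high in every list, at 94.5, 91.9 and 97.2. Further pairs lay near Tle2, a Groucho-family corepressor (shift 58.3, split), and Vwf, the von Willebrand factor gene of endothelium and megakaryocytes (56.5, 14.2 and 8.59). Toward rapamycin the nearest genes were Ric8b (-47.2), Skida1 (-44.5), Mcrs1 (-42.9), Ftdc1 (-41.8) and Casr (-40.5). No link between these peaks and the nearest gene was measured.

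Peaks were wider under AZD2014 in 62.2% of pairs, with a median width ratio of 1.06 and kept medians of 787 bp against 735 bp. At least 1.5 times as wide under AZD2014 were 964 pairs (6.69%), and under rapamycin 305 (2.12%). Over all pairs the Spearman correlation of the shift with the log2 width ratio was 0.172, and 62.7% and 62.4% of pairs were wider under AZD2014 at shifts of -10 to 0 and 0 to 10 points. Within each kept list, score and width had a Spearman correlation of 0.769 (AZD2014) and 0.780 (rapamycin). Width is thus not a readout apart from the score, and pairs picked for a gap in score tend to differ in width too. Among the 204 pairs that shifted by 30 points or more toward AZD2014 the median ratio was 1.37 and 90.7% were wider under AZD2014. Among the 220 pairs with shifts below -30 points it was 0.869 and 29.1%. In pairs whose percentiles differed by less than 5 points 62.2% were still wider under AZD2014. Read totals were not available, and their part in these widths was not tested.

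**Figure D4:**
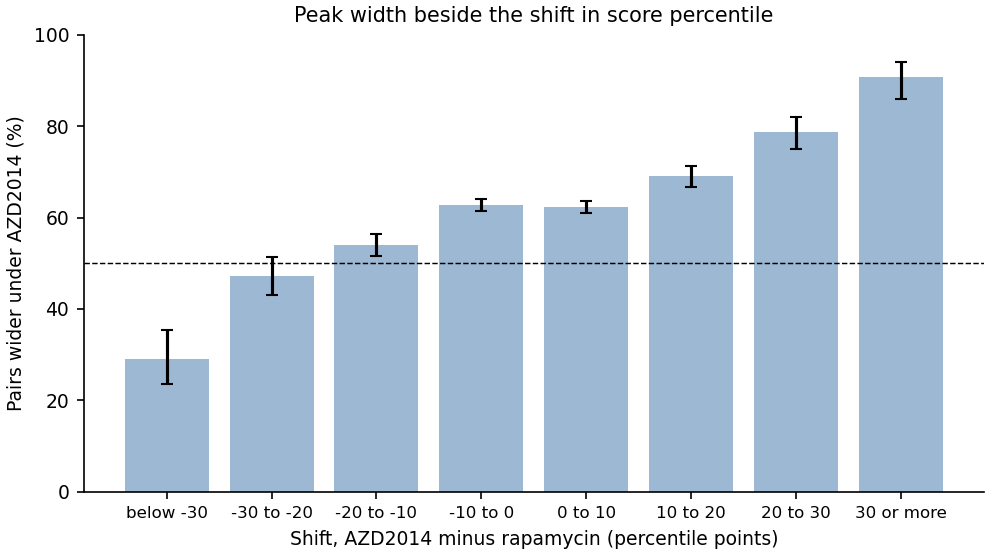
Share of pairs whose AZD2014 peak was the wider (bars, %) by shift in percentile points, with 95% Wilson intervals that cover counting error over peaks only; the dashed line marks 50%. The share runs from 29.1% at the strongest shifts toward rapamycin to 90.7% at the strongest toward AZD2014, and is above 50% where the percentiles are nearly equal.

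At gene starts with 1 partner on each side, the widest AZD2014 peak relative to rapamycin was at Vegfa, the vascular endothelial growth factor gene, with 2594 bp against 678 bp, and 543 bp under DMSO. Its percentiles were 65.6, 37.0 and 54.6. Spred2, an inhibitor of the RAS to ERK pathway, had 2733, 823 and 909 bp with percentiles of 48.2, 29.4 and 24.0. Faap20, a Fanconi anaemia core protein gene, had 1603 bp against 569 bp, over 2 deposited rapamycin peaks. AZD2014 alone was broad at the first 2. In the other direction Psmb8, which encodes an interferon-induced catalytic subunit of the immunoproteasome, had 482 bp against 1291 bp and percentiles of 2.42 and 47.2, with no DMSO peak. Fndc3b (525 and 1358 bp) and Il10rb (453 and 1149 bp) followed.

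Promoter coverage by the paired peaks was lower at shifted genes. Of 8261 genes with a pair and a RefSeq promoter, the paired AZD2014 peak covered all 250 bases in 89.8% and the rapamycin peak in 86.9%. For the 293 such genes shifted toward AZD2014 these shares were 79.9% and 65.2%, and for the 225 shifted toward rapamycin 67.6% and 72.9%. Coverage was not compared at matched level. Shifts were most frequent at a mean percentile of 20 to 40, where the median AZD2014 width was 645 bp, against 1188 bp at 80 to 100. Among the genes toward AZD2014 (83.7% with a sequence) the median G and C content was 58.8% against 61.6% for all. At a mean percentile of 20 to 60 it was 58.0% for those toward AZD2014 against 59.2% for all. The GC box was present in 56.3% of the promoters toward AZD2014 and 66.1% of all, and TATAAA in 8.53% and 4.99%. At a mean percentile of 20 to 60 these were 53.0% and 57.7% for the GC box, and 10.1% and 6.28% for TATAAA. For the genes toward rapamycin only 78.9% have a sequence in the table, under the 80% needed, so composition and motif shares are void for them. Their coverage above describes that part only. The traits above can therefore not be called particular to the AZD2014 side.

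Genes of the mTOR pathway were followed by lists chosen with earlier results of these data known. All 12 genes of mTORC1 and mTORC2 subunits had a gene-start pair, and 1 (8.33%, beside 6.32% of all genes) passed 20 points. This was Prr5l, a protein bound to mTORC2, at percentiles of 55.1, 17.1 and 35.4 and a shift of 37.9 points, with an AZD2014 peak 2.74 times as wide. Mtor itself ranked near the top of every list, at 93.6, 97.0 and 98.4. Rptor, the Raptor gene, had 49.6, 42.7 and 29.7, and Rictor 60.02, 75.4 and 61.7, shifts of 6.87 and -15.4 points. Deptor, an inhibitory subunit, had 83.1, 69.2 and 63.1, and Mapkap1, an mTORC2 subunit, 78.2, 65.3 and 76.0. The median shift of the 12 was -2.90 points, beside 0.134 over all 10040 genes.

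Upstream of mTORC1, 28 of the 30 listed genes of the TSC complex, the Rag and Rheb GTPases and their sensors had a pair. Of these, 2 passed 20 points toward AZD2014 (7.14%) and 0 toward rapamycin, beside 3.49% and 2.84% of all genes. Lamtor2, a Ragulator subunit that anchors the Rags to the lysosome, had 77.2, 40.7 and 81.2 in a split pair shared with the start of Ubqln4. Prkaa2, a catalytic subunit of the energy sensor AMPK, had 21.03, 0.00582 and 42.7, as its rapamycin peak was the lowest one kept; with percentiles taken among paired peaks alone its shift was 11.7 points. Rragb had a shift of 19.4 and the arginine sensor Slc38a9 13.6, whereas Tbc1d7, the third TSC subunit, had -12.3. Tsc2, which restrains Rheb, stood at 46.3 and 49.5 and Tsc1 at 81.3 and 87.5. Among 19 effectors with a pair, Eif4a1 was the only gene past 20 points (5.26%, beside 6.32% of all genes). Rps6kb1, the S6 kinase gene, had 85.3, 85.6 and 82.8, Eif4ebp1, the 4E-BP1 gene, 84.8, 86.4 and 74.3, and Eif4e, the cap-binding protein gene, 74.6, 78.3 and 78.7. The 2 drugs thus ranked these starts within 5 points of each other. Of 18 genes of PI3K, AKT and insulin signalling 0 passed 20 points in either direction (6.32% of all genes did), and their shifts ran from -10.2 to 13.5.

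Translation genes lay on both sides, to be read beside the 3.49% of all genes that passed toward AZD2014 and 2.84% toward rapamycin. Of 64 initiation and elongation factor genes, taken by symbol, 3 (4.69%) passed 20 points toward AZD2014 and 4 (6.25%) toward rapamycin. Toward AZD2014 were Eif2ak2 (PKR, an eIF2 kinase counted by its symbol; 30.3), Eif3g (22.8) and Eif2b1 (20.95), and toward rapamycin Eif4a1, Eif1b (-37.7), Eif3h (-30.2) and Eif2b3 (-22.3, but -12.0 at full list length). The median shift of 79 cytosolic ribosomal protein genes was -0.320 points. Of 69 mitochondrial ribosomal protein genes 1 (1.45%) passed in each direction, Mrpl9 (28.3) and Mrpl42 (-26.1, but -15.2 at full list length). Of 34 aminoacyl-tRNA synthetase genes Iars2 (23.4) and Tars2 (21.1, but 19.3 among paired peaks alone) passed toward AZD2014 (5.88%) and 0 toward rapamycin. Among 29 genes of RNA polymerases I and III and their factors, 1 (3.45%) passed in each direction. Polr1d (28.1) passed toward AZD2014. Ubtf, the upstream binding factor of ribosomal DNA (-25.2, split, but -16.8 at full list length), passed toward rapamycin.

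The integrated stress response, in which eIF2 kinases raise ATF4 and its targets, had 24 genes with a pair. Of these 5 (20.8%) passed 20 points toward AZD2014, beside 3.49% of all genes, and 0 passed toward rapamycin. Chac1, a glutathione-degrading ATF4 target whose promoter is printed above, had scores of 195.77, 72.45 and 113.53 and percentiles of 53.2, 20.4 and 46.4. Eif2ak2 had 42.7 and 12.4 and no DMSO peak. Slc3a2, the heavy chain of amino acid transporters, had 59.9, 37.2 and 59.5, and Slc7a11, the cystine transporter that pairs with it, 38.4, 16.1 and 21.7. Ddit3, the gene of the stress factor CHOP, had 92.5, 70.2 and 76.7 in a split pair, and is named although the rule for named genes stops at 4 per list. Rapamycin had the lowest percentile at all 5 among the lists with a peak, though at Ddit3 its percentile stands for only part of the region. The shift of Slc7a11 was 19.5 points with percentiles taken among paired peaks alone. The other 19 had shifts between -9.23 (Ppp1r15b) and 15.4 points (Xbp1), and Atf4 itself stood at 97.2, 95.1 and 86.8. The median of the 24 was 1.27 points, so most members did not move with the 5. Asns, the asparagine synthetase gene, had 46.2 and 53.1, and Trib3 and Atf6 had no pair.

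**Figure D5:**
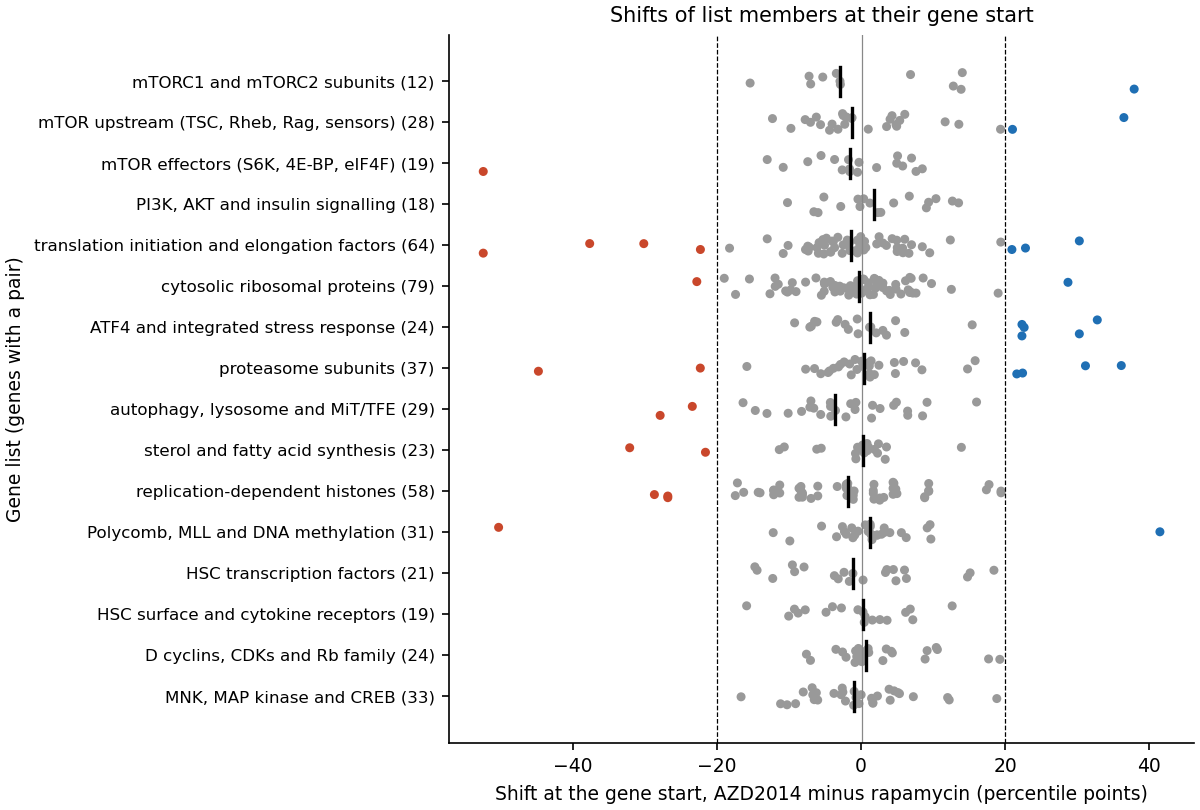
Shift at the gene start in percentile points (horizontal) for the members of 16 gene lists, 1 point per gene, blue at 20 points or more toward AZD2014 and red toward rapamycin; black ticks mark list medians and the number of genes with a pair is in brackets. Medians lie within 4 points of 0 in all 16 lists, and members past the dashed lines are few in each.

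Proteasome genes showed 4 of 37 past 20 points toward AZD2014 (10.8%) and 2 toward rapamycin (5.41%), beside 3.49% and 2.84% of all genes. Psmb4, a subunit of the core particle, had 38.2, 2.04 and 43.5, Psmb10, an interferon-induced catalytic subunit, 44.0, 12.9 and 52.9 in a peak 880 bp from its start, Psmd1 54.6, 32.2 and 70.2 and Psmc2 51.8, 30.1 and 47.1. In the other direction stood Psmb8, described above, and Psmb7 with 54.0, 76.3 and 48.3 (-14.8 points at full list length). The 2 interferon-induced subunits Psmb8 and Psmb10 thus lay on opposite sides. Psmb9, the remaining catalytic subunit of the immunoproteasome, had 85.0, 85.5 and 85.0 at a peak shared with Tap1.

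Of 29 autophagy and lysosome genes 0 passed 20 points toward AZD2014 and 2 (6.90%) toward rapamycin, beside 3.49% and 2.84% of all genes. Of the 29, 19 ranked higher under rapamycin, with a median shift of -3.55, beside 4914 of 10040 and a median of 0.134 over all genes. Ctso, a lysosomal cathepsin gene, had 32.9 and 60.8 and no DMSO peak, and Gabarap, an ATG8-family protein that binds autophagosome membranes, 32.6, 56.1 and 25.8. Lamp1, a lysosomal membrane glycoprotein gene, had 37.0, 51.7 and 62.9, and Tfeb, the transcription factor of lysosomal genes that mTORC1 keeps in the cytoplasm, 52.4, 59.5 and 49.6. At full list length Ctso and Gabarap stood at -17.1 and -12.9 points. Among 23 genes of sterol and fatty acid synthesis 2 (8.70%) passed toward rapamycin: Scd2, a desaturase gene (41.3, 73.5 and 62.4), and Srebf1, the SREBP-1 gene through which mTORC1 drives lipid synthesis (57.0, 78.6 and 55.1; -14.5 points at full list length). Hmgcs1 and Fasn, enzymes of cholesterol and fatty acid synthesis, ranked at 97.9 or above in both lists and shifted by less than 1 point.

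Of 21 HSC transcription factor genes with a pair, 0 passed 20 points in either direction. Over all genes 6.32% passed, a share that leaves few such genes in a list this short. Shifts of the 21 ran from -14.7 at Erg to 18.5 at Spi1, with quartiles of -7.92 and 4.85 beside -4.86 and 5.17 over all genes. Spi1, the gene of the myeloid factor PU.1, had 19.4 and 0.925 and no DMSO peak, in a pair 315 bp from the start. Runx1 had 49.0, 58.3 and 58.8, Tal1 67.9, 52.8 and 54.5, and Mecom 63.1, 59.6 and 66.9. Of 19 surface and cytokine receptor genes with a pair 0 passed as well (quartiles -6.31 and 3.12). Kit, the stem cell factor receptor, had 40.8, 56.6 and 55.9, with AZD2014 the lowest. Within 1 kb of the start, Meis1 had a kept peak under DMSO and rapamycin only, Hoxa9 under DMSO only and Cdk6 under rapamycin only, so none of the 3 has a pair there. Of 21 genes of the Hox A and B clusters 2 had a pair: Hoxb4, a Hox gene used to expand HSCs in culture, with 50.1, 16.6 and 28.7, and Hoxa4 with 61.3, 53.3 and 62.5.

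Among D cyclins, CDKs and the Rb family 0 of 24 passed 20 points. Over all genes 6.32% passed, which leaves few in lists as short as those of this paragraph. Ccnd2 had 69.5, 65.1 and 50.2, in an AZD2014 peak of 2268 bp against 1335 bp. Ccnd3 had 54.5, 36.8 and 54.3 and Rbl2, a pocket protein gene, 59.7, 40.4 and 52.9 in a split pair. Of 15 CDK inhibitor and quiescence genes 0 passed, with Cdkn1c, the p57 gene of quiescent HSCs, at 60.7, 46.5 and 72.8 and Gadd45b at 59.2, 77.4 and 57.7. For the MNK, MAP kinase and CREB genes it was 0 of 33. Mknk1 and Mknk2, the kinases that phosphorylate eIF4E, had 80.9, 81.9 and 79.2, and 91.8, 98.5 and 96.0, and Creb1 85.7, 81.2 and 92.2. Of 16 Myc network genes 0 passed, and Myc had 55.1, 48.7 and 52.4.

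Chromatin regulators held 1 gene (3.23%) at each extreme among 31 with a pair, beside 3.49% and 2.84% of all genes. Dnmt3a, the de novo DNA methyltransferase whose loss expands HSCs, had 46.8, 5.34 and 56.8 and a shift of 41.5 in a split pair, its AZD2014 peak of 2255 bp spanning 2 rapamycin peaks. Cbx7 had the shift of -50.3 given above. The median of the 31 was 1.28 points, and Dnmt3b (62.3, 56.1 and 64.9), Ezh2 (91.2, 90.6 and 91.4) and Bmi1 (53.1, 43.4 and 70.5) stayed under 10 points. Of 58 replication-dependent histone genes, which share 35 peaks, 0 passed toward AZD2014 and 3 (5.17%) toward rapamycin: H1f2 (-28.7, split) and the neighbours H2ac4 and H3c2 at 1 shared peak (-26.8). All 3 were under 20 points at full list length (-19.7 and -14.5).

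Cytokine and interferon genes were mixed. The shares in this paragraph are to be read beside the 3.49% of all genes that passed toward AZD2014 and 2.84% toward rapamycin. Of 25 NF-kB, JAK and STAT genes 2 passed toward AZD2014, Stat6 and Jak3 (40.4, 19.4 and 44.3; 19.5 points among paired peaks alone), and 2 toward rapamycin, both kinases of the IkB kinase complex: Ikbkb (31.4, 52.9 and 36.9) and Chuk (14.8, 38.0 and 15.4). At full list length their shifts were -10.9 and -10.2 points, and among paired peaks alone Chuk had -19.2. Of 20 interferon response genes, relevant here because poly(I:C) induces interferon in every group's mice, Ifi35 (26.4 and 1.27) passed toward AZD2014, and Psmb8 and Ifi27 (10.8, 33.2 and 4.47) toward rapamycin. With percentiles among paired peaks alone Ifi35 and Ifi27 had 15.6 and -16.9 points. In the ETS family Etv4 (46.9, 20.1 and 42.5) was the only one of 16 with a pair to pass, toward AZD2014 (6.25%). Of 26 glycolysis and hypoxia genes Vegfa passed toward AZD2014 (3.85%) and Gpi1, the glucose-6-phosphate isomerase gene (9.99, 46.3 and 51.2), toward rapamycin (3.85%). Of 82 respiratory chain and ATP synthase genes with a pair Atp5l (28.0) passed toward AZD2014 (1.22%). Atp5d, Ndufa3 (-29.4) and Ndufs6 (-21.3) passed toward rapamycin (3.66%). At full list length Ndufa3 and Ndufs6 were at -17.5 and -11.8 points.

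Among 262 Zfp genes, which encode zinc finger proteins, 13 (4.96%) passed toward AZD2014 and 7 (2.67%) toward rapamycin. Zfp14 led with 42.8, 5.59 and 49.3, and Zfp846 had 43.4, 78.4 and 49.2 on the other side. Of 22 housekeeping genes 2 (9.09%) passed toward AZD2014, Psmb4 and Emc7 (88.0, 67.4 and 86.6). Over the 38 lists, 1185 distinct genes had a pair, of which 41 (3.46%) passed toward AZD2014 and 31 (2.62%) toward rapamycin, shares close to the 3.49% and 2.84% of all genes.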

How the data were processed

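Accessible chromatin was measured by ATAC-seq. In each library, per the labels' protocols, 50000 cells were transposed for 30 min at 37 °C and sequenced on an Illumina HiSeq 2500. CASAVA and the build mm10 are named in the submitters' processing notes. MACS appears in the peak names of the deposited lists. Its version and settings, the aligner and the handling of duplicates were not given in the sources used here. Scores are the authors' values, deposited without a stated scale, and served only to rank peaks inside a list. Peak positions and widths come from the deposited start and end columns, a kind of value other than the score, with starts written from 1. Depth is unknown and no signal was compared.

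Groups were taken from sample titles. Ties at the list edge went to the wider peak, then by position. When several peaks overlapped, a pair was formed between peaks that were each other's largest overlap. Percentiles are mid-ranks within the kept list. Gene positions came from RefSeq on GRCm38.p6, with start sites for 17492 of 21887 protein-coding genes. A gene with several pairs was given the one with the highest mean percentile. Of 1526 listed genes 1522 matched by symbol.

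Named were, without Gm and Rik genes, the 10 largest shifts per direction at gene starts, the 5 largest with both percentiles at 50 or above, the 5 largest in gene bodies and outside genes within 20 kb of a gene, the 3 most extreme width ratios, list members past 20 points (at most 4 per direction) and 18 genes whatever their values. Further list members are named for context, picked with their values in view. Some genes that meet the rule are not reported here. The members and lists were chosen with earlier results of these data known.

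No test was run, as there is 1 library per condition. Alternatives covered list length, pairing, chromosomes, threshold, gene window and the choice of a gene's pair, and a pair of settings was added after the data were seen. The pairing code was tested on simulated data. Python 3.11.15, numpy 2.4.6, pandas 2.3.3, scipy 1.17.1 and matplotlib 3.10.9 were used.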

Additional observations from a re-analysis of the deposited data

How the results depend on the processing

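Lists ranked at full length moved all 9 summary values: the share of pairs ranked higher under AZD2014 was 68.0% (68.3% at gene starts, 68.8% in gene bodies, 66.2% outside genes), 11.3% and 2.39% of pairs passed 20 points toward AZD2014 and rapamycin, 696 and 104 genes did so, and 60.9% of pairs were wider under AZD2014. This follows from the longer AZD2014 list. With the 10000 highest-scoring peaks, 531 genes passed toward AZD2014 and 478 toward rapamycin, while the 7 shares kept their values within counting error or within 1.5 times. Counting shifts from 10 points gave 16.6% and 17.0% of pairs and 1302 and 1195 genes, and from 30 points 1.42% and 1.53% of pairs and 98 and 78 genes. Percentiles among paired peaks, a reciprocal overlap of 50%, all overlapping pairs, peaks with 1 partner, autosomes, gene windows of 500 and 2500 bp, the largest overlap per gene, pairs with near-equal percentiles and the settings added later (spans with 1 peak of each deposited list, either end for all genes) moved none of the summary values they bear on. Of 105 named shifts past 20 points, 78 stayed past it in the same direction wherever the setting still held the pair. Another 27 were under 20 points in at least 1 setting and 0 reversed. Ranking at full length brought 22 of these under 20 points, all of them shifts toward rapamycin. The longer AZD2014 list lifts AZD2014 percentiles in that setting, so it weighs mostly on shifts toward rapamycin. The steadiness of the 2 directions can therefore not be compared by it. Settings that only select pairs (reciprocal overlap, all overlapping pairs, 1 partner, spans with 1 peak) leave every percentile as it was. They could not change a named shift. The lists of 10000 peaks held only 21 of the 105, so these counts say little about steadiness. Read depth, peak calling and replicate spread are unknown and limit every value.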

Other observations

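Genes with at least 4 pairs in the gene and at its start numbered 101, with a median of their median shifts of -1.50 points. Rere, an atrophin-family corepressor gene, had the highest median shift, 12.6 points over 6 pairs, of which 5 ranked higher under AZD2014. Elmo1, a regulator of Rac that acts in phagocytosis, had the lowest, -22.1 over 5 pairs, with 4 higher under rapamycin. Of the 101 genes, 4 had every pair ranked higher under AZD2014, such as Ralgps1. Another 7 had every pair higher under rapamycin, such as Gas2 (4 pairs, median -18.6) and Mctp1 (4 pairs, median -12.2). Over all pairs 49.9% ranked higher under AZD2014, so some genes with few pairs would have all on 1 side by that share alone. The counts were not tested against it. At App, the amyloid precursor gene, 3 of 4 pairs ranked higher under rapamycin, by up to 30.7 points, and the remaining one ranked 32.0 points higher under AZD2014.

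Neighbouring pairs did not share their shifts. Across 235 neighbours less than 2 kb apart the Pearson correlation of shifts was -0.120, and it was -0.0152 for 1447 neighbours 2 to 10 kb apart and -0.00857 for 5147 at 10 to 50 kb; neighbours share their libraries.

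By chromosome, the share of pairs ranked higher under AZD2014 was lowest among autosomes on chromosome 17 (44.4% of 723 pairs) and highest on chromosome 15 (55.0% of 551). Chromosome Y had 11 pairs, 3 of them higher under AZD2014.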
